A study of Mus musculus with 16 samples.

Results

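The transcripts of the mitochondrial genome were followed through RNA-seq of mouse adipose tissue macrophages (ATMs), as all rows of the count table whose gene name begins with mt-. They make 37 of 37310 rows, namely 13 mRNAs, 2 rRNAs and 22 tRNAs. ATMs positive for F4/80 were sorted from the epididymal fat of male mice fed a high-fat diet (HFD). The study asks how IRF5, a transcription factor of inflammatory macrophages, bears on ATM metabolism. The diet lasted 4 weeks (short term, ST-HFD) or 12 weeks (long term, LT-HFD). IRF5-KO mice carried the floxed Irf5 allele of the strain C57BL/6-Irf5tm1Ppr/J on both chromosomes, and Cre from the LysM locus of the strain B6.129P2-Lyz2tm1(cre)Ifo/J. The comparison was with wild-type (WT) mice. LysM-Cre acts in myeloid cells and so leaves the gene intact in other cells of the fat. Each of the 4 groups holds 4 numbered libraries. The study counts its replicates in mice, but the labels do not tie a library to a mouse, so p-values measure the spread between these libraries.

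The mitochondrial genome encodes core subunits of the respiratory chain and of ATP synthase, together with the rRNAs and tRNAs that translate them inside the organelle. Both strands are transcribed as long RNAs, which are then cut apart, mostly at the tRNAs that lie between the other genes. Transcription of the heavy strand begins ahead of the rRNA genes, and mt-Nd6 is the only mRNA made from the other strand. Fragments of mitochondrial DNA have also been copied into the nuclear chromosomes during evolution, and RNA reads cannot be told apart where such a copy is still identical to the original.

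The libraries held 3279332 to 4958131 counts, of which the ST-HFD libraries had 3860469 or more and the LT-HFD libraries 3792898 or fewer. All 8 macrophage markers were above 0 in every library. Their summed level in CPM, the counts scaled to library size with TMM factors, was 9833 to 10057 in WT and 8091 to 8596 in IRF5-KO after the short diet, and 7661 to 9627 and 6305 to 6620 after the long one. It was thus lower in IRF5-KO than in WT at both durations, and lower after the long diet in both genotypes, without overlap. Among these markers is Lyz2, the locus that carries Cre in the IRF5-KO mice, and the markers were only summed. The genotype difference in the sum can therefore not be read as fewer macrophages. The 6 fibroblast and preadipocyte markers were above 0 in every library as well and summed to 653 to 1593 CPM after the short diet and 3001 to 8690 CPM after the long one. The level of Irf5 was 203 to 252 CPM in WT and 250.4 to 274 CPM in IRF5-KO on ST-HFD, and 170.5 to 213 and 206 to 253 CPM on LT-HFD. These counts gave no sign of a loss of Irf5 under the IRF5-KO label, but a count summed over a gene does not separate deleted from remaining exons. Genotype and duration throughout are those of the labels.

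The first feature of the data is a stretch of the mitochondrial genome in which almost no reads were counted. Of the 13 mRNA rows, 5 had 402 to 9586 counts per library and lie outside the stretch. These are mt-Nd1, mt-Nd2, mt-Nd5 and mt-Nd6, subunits of complex I, and mt-Cytb, a subunit of complex III. The 6 rows wholly inside it had 0 to 74 counts. They are mt-Co2 and mt-Co3 of complex IV, mt-Atp8 and mt-Atp6 of ATP synthase, and mt-Nd3 and mt-Nd4l of complex I. Apart from mt-Nd3, none of them passed 7 counts in any library. The 2 rows partly inside, mt-Co1 of complex IV and mt-Nd4 of complex I, had 1019 to 17673 counts.

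The stretch coincides with a copy of the mitochondrial genome on chromosome 1. In the GENCODE M21 annotation of GRCm38, the build also called mm10, 7 unprocessed pseudogenes lie on the minus strand at chr1:24611535-24616197, which spans 4663 bases. Aligned to the mitochondrial mRNAs, they cover chrM:6381-11042, a span of 4662 bases. Gm28661 matched mt-Co2 over 681 bases without a mismatch, Gm10925 matched mt-Atp6 over 678 bases and Gm28437 matched mt-Co3 over 783 bases, likewise without a mismatch. Gm10222 matched mt-Nd4l over 294 bases and Gm28439 the first 876 bases of mt-Nd4, again with 0 mismatches. Gm28438 differed from mt-Nd3 at 1 of 345 bases, and Gm29216 from the last 492 bases of mt-Co1 at 6. Only annotated models were compared, since no genome sequence was used here, so mt-Atp8 lies inside the span without a model of its own.

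The starts of both differing pairs and of 1 identical pair are shown because they are where the copies can, or cannot, be told apart by sequence. Each is given 5′ to 3′ on the strand of the gene, from the GENCODE M21 transcripts, with differing bases in capitals. The mt-Nd3 stretch is chrM:9459-9538 on the plus strand, and that of Gm28438 is chr1:24613040-24613119 on the minus strand. The mt-Co1 stretch is chrM:6382-6461, and that of Gm29216 is chr1:24616117-24616196. The mt-Atp6 stretch is chrM:7927-8006, and that of Gm10925 is chr1:24614572-24614651.
mt-Nd3: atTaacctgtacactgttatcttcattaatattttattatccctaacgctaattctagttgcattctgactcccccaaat
Gm28438: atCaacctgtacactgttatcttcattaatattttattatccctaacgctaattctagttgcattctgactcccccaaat
mt-Co1: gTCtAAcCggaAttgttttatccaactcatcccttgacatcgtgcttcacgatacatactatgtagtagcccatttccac
Gm29216: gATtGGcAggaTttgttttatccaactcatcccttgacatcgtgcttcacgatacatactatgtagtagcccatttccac
mt-Atp6: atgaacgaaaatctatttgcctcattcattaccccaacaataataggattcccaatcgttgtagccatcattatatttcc
Gm10925: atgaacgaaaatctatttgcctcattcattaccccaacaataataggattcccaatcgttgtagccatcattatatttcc

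Counted from 1 at the first base of the mitochondrial gene, with its base first, the difference in mt-Nd3 is T3C. The differences in mt-Co1 are T1056A, C1057T, A1059G, A1060G, C1062A and A1066T, all at the 5′ end of the shared stretch. Beyond them the 2 sequences of each pair were identical to the end of the alignment.

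The reads were 100 bases long in pairs, so the share of 100-base windows of each gene that occur letter for letter in a nuclear model was counted. It was 99.5% for mt-Co2, 99.5% for mt-Atp6, 99.9% for mt-Co3, 98.5% for mt-Nd4l and 97.6% for mt-Nd3. It was 60.8% for mt-Nd4 (777 of 1279 windows) and 30.8% for mt-Co1 (446 of 1446 windows). In mt-Nd2 it was 3.19%, from the pseudogene Gm13339, and in the other mRNAs and the rRNAs it was 0. In mt-Nd3, 6 of 249 windows were its own. The rows that shared nearly all windows were those with 0 to 74 counts. The exception was mt-Atp8, at 0 to 1 counts without a window shared with an annotated model.

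**Figure D1:**
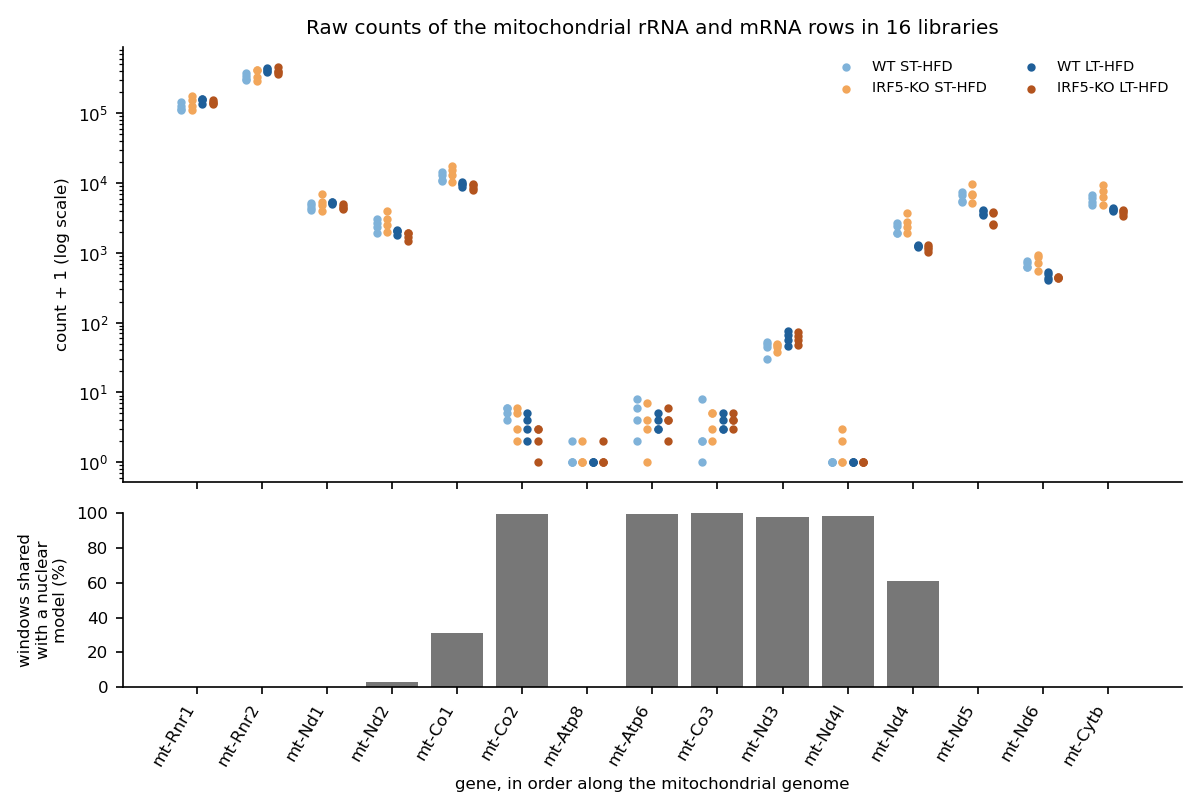
Raw counts plus 1 on a log axis for the 2 rRNA and 13 mRNA rows in order along the mitochondrial genome, 1 point per library coloured by group, above the percentage of each gene's 100-base windows found in a nuclear gene model. Rows at 97.6% or more shared windows sit at 0 to 74 counts, while rows with 0% sit at 402 or above, except mt-Atp8 at 0 to 1.

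The nuclear models whose counts were read held few. Of the chromosome 1 models, Gm10925 had 25 to 50 counts per library, listed under another Ensembl identifier (ENSMUSG00000090378) than in GENCODE M21, and Gm10222 had 1 to 14. The other 5 were not analysed here. The pseudogenes Gm13340, Gm13341 and Gm13339 of other copies had 1 to 14, 0 to 6 and 0 to 2 counts. How reads with several matching positions were counted is not given in the sources used here, so the levels of the 6 rows inside the stretch cannot be read as levels of these mRNAs, and those of mt-Co1 and mt-Nd4 may be underestimates.

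The 22 tRNA rows were nearly empty. At 59 to 75 bases, these genes are shorter than a read. In every library 9 of them were at 0, including the 5 inside the stretch, where a count of 0 allows up to 3 counts, or 0.605 to 0.915 CPM before TMM scaling. Another 11 never passed 6 counts. The others were mt-Tp, for proline, with 0 to 17 counts, and mt-Ty, for tyrosine, with 6 to 33. Both are encoded on the minus strand, mt-Ty at chrM:5260-5326 and mt-Tp at chrM:15356-15422, and their sequences, 67 bases each, are shown in the sense of the tRNA as the only tRNA rows with more than a handful of reads.
mt-Ty: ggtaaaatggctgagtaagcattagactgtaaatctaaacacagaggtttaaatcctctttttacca
mt-Tp: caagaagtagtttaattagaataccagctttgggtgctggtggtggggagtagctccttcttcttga

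After the filter on low counts 11 of the 37 rows were tested: both rRNAs, 8 mRNAs and mt-Ty. The 26 others, among them mt-Co2, mt-Atp8, mt-Atp6, mt-Co3 and mt-Nd4l, entered no test.

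Per kilobase of gene, the rRNAs stood far above the mRNAs. Over the 16 libraries mt-Rnr2 (ENSMUSG00000064339, chrM:1094-2675), the large-subunit rRNA, averaged 62623 CPM per kb and mt-Rnr1 (ENSMUSG00000064337, chrM:70-1024), the small-subunit rRNA, 38261 CPM per kb. Both values were measured after a depletion step with probes against mammalian rRNA, and whether the probes cover mitochondrial rRNA is not stated. Among the mRNAs, mt-Co1 was highest at 1834 CPM per kb, although part of it lies in the shared stretch, and 15.6 to 27.6 times below mt-Rnr1 in the same library. It was followed by mt-Nd1 at 1326 and mt-Cytb at 1140 CPM per kb. The order of these neighbours differed by duration. On LT-HFD mt-Nd1 lay above mt-Cytb in all 8 libraries, at 1605 against 1077 CPM per kb in WT and 1357 against 952 in IRF5-KO. On ST-HFD it did so in 2 of 8 libraries, at 1051 against 1091 CPM per kb in WT and 1290 against 1439 in IRF5-KO.

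Below them came mt-Nd5 at 690 CPM per kb, mt-Nd2 at 556, mt-Nd4 at 328 and mt-Nd6 at 284 CPM per kb. On ST-HFD mt-Nd5 lay above mt-Nd2 and mt-Nd4 above mt-Nd6 in all 8 libraries. On LT-HFD the first order held in 5 of 8 libraries and the second in 4 of 8. There mt-Nd4 and mt-Nd6 averaged 268 and 266 CPM per kb in WT and 241 and 242 in IRF5-KO. Every other step of the order held in all 16 libraries. Per 1000 windows of its own, mt-Nd4 stood at 901 CPM, above mt-Nd5 at 729 CPM, and mt-Co1 stood at 2834 CPM. Thus the place of mt-Nd4 in the order depended on how its shared part was treated. Last of the 8 tested mRNA rows was mt-Nd3, at 38.6 CPM per kb of gene, above the 5 nearly empty rows that were not tested. As it lies inside the shared stretch, this is an order of counts and not of mRNA levels.

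The mitochondrial rows took 8.94% to 15.5% of a library's counts after the short diet and 14.9% to 19.6% after the long one. Nearly all of this was rRNA. The rRNA share was 10.1% ± 1.18 (SD, n = 4) in WT and 11.9% ± 2.30 in IRF5-KO on ST-HFD, and 16.1% ± 1.72 and 15.4% ± 0.963 on LT-HFD. Only IRF5-KO ST-HFD replicate 2, at 14.4%, reached into the range of the LT-HFD libraries, whose lowest was 14.3%. The mRNA share was 0.764% ± 0.111 in WT and 0.933% ± 0.221 in IRF5-KO on ST-HFD, against 0.752% ± 0.0772 and 0.669% ± 0.0762 on LT-HFD, and here the durations overlapped. Sums over the rows are given without a test, and the mRNA sum holds almost no counts from the rows wholly inside the shared stretch. In these bulk libraries fewer cells of a type and less RNA per cell cannot be told apart.

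Dividing one sum by the other needs no scaling between libraries. The rRNA counts are those left after the depletion step. If its probes cover mitochondrial rRNA, uneven depletion would enter the ratio, and this was not tested. The ratio of rRNA to mRNA counts was 13, 12.6, 13.5 and 13.9 in the WT libraries on ST-HFD, replicates 1 to 4, and 12.8, 13.7, 11.2 and 14 in the IRF5-KO libraries. On LT-HFD it was 20.8, 21.7, 21.1 and 22.3 in WT and 23.7, 23.7, 24.3 and 20.9 in IRF5-KO. All 8 libraries on LT-HFD thus lay above all 8 on ST-HFD, while the genotypes overlapped at both durations. The share of counts in mmu-mir-689-2, the nuclear row with the most counts, was 10.2% to 12.5% in WT and 8.99% to 11.5% in IRF5-KO on ST-HFD. On LT-HFD it was 10.9% to 15.8% and 11.8% to 14.6%, so that the durations overlapped in WT and not in IRF5-KO. Its part in the shares was not tested, and it does not enter the ratio.

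**Figure D2:**
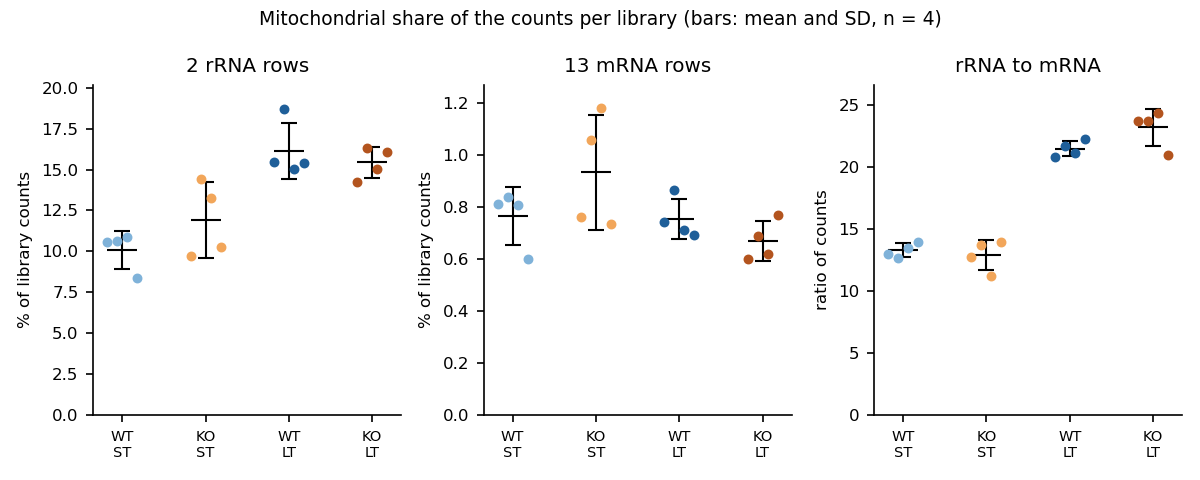
Percentage of library counts in the rRNA rows (left) and the mRNA rows (middle) and the ratio of rRNA to mRNA counts (right), 1 point per library with the mean and SD of 4 libraries per group. The ratio sits between 11.2 and 14 in the ST-HFD libraries and between 20.8 and 24.3 in the LT-HFD libraries.

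Diet duration was compared within each genotype in a fit over all 16 libraries, with LT-HFD over ST-HFD as a log2 fold change (log2FC). In WT, the rRNAs and the mRNA that follows them on the genome, mt-Nd1, were higher on LT-HFD, together with the sparsely counted mt-Nd3. These 4 of 11 tested rows passed an adjusted p of 0.05, where 25.3% of all 11560 tested genes did, 12.1% upwards and 13.2% downwards. The median log2FC of the 11 rows was 0.09, beside 0.02 over all tested genes. The other 7 rows, mt-Nd4 and mt-Nd5 among them, did not pass.

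The level of mt-Rnr2 was 73799, 78716, 77699 and 55988 CPM in the WT libraries on ST-HFD and 111180, 157915, 109971 and 115748 CPM on LT-HFD. The durations did not overlap, and replicate 2 stood highest on LT-HFD. The log2FC was 0.79 (standard error 0.20, edgeR adjusted p = 0.00641). For mt-Rnr1 the levels were 28191, 29254, 28616 and 21608 CPM on ST-HFD and 41868, 56516, 38251 and 43135 CPM on LT-HFD, again without overlap. Its log2FC was 0.74 (standard error 0.18, edgeR adjusted p = 0.00674).

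The level of mt-Nd1 (ENSMUSG00000064341, chrM:2751-3707) was 1007, 1131, 1115 and 769 CPM in WT on ST-HFD and 1451, 1866, 1448 and 1380.2 CPM on LT-HFD. All 4 LT-HFD libraries lay above the ST-HFD libraries. The log2FC was 0.61 (standard error 0.17, edgeR adjusted p = 0.0128). The counts of mt-Nd3 (ENSMUSG00000064360, chrM:9459-9806) were 52, 44, 29 and 49 on ST-HFD and 55, 45, 74 and 66 on LT-HFD, and scaled to CPM the durations did not overlap. The log2FC of mt-Nd3 was 0.90 (standard error 0.19, edgeR adjusted p = 0.00221), for a row that shares 97.6% of its windows with the chromosome 1 copy. Groups did not overlap in 4 of the 11 rows, beside 26.1% of all tested genes.

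The remaining rows in WT had a log2FC between -0.39 for mt-Nd4 and 0.14 for mt-Nd2. For mt-Nd4 the standard error was 0.19 and the edgeR adjusted p was 0.143. In mt-Cytb, at -0.02, and in mt-Ty, at -0.07, the sign turned when libraries were scaled by their totals without the mitochondrial rows and mmu-mir-689-2.

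In the libraries labelled IRF5-KO the same comparison gave 5 of 11 rows past the threshold, where 32.8% of all tested genes passed, 15.6% upwards and 17.2% downwards. Here 4 mRNAs were lower on LT-HFD, namely mt-Nd4, mt-Nd5, mt-Nd6 and mt-Cytb, and mt-Nd3 was higher. The median log2FC was -0.43, beside 0.04 over all tested genes. The rRNAs did not pass in this fit, although mt-Rnr2 did under some alternatives.

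The level of mt-Nd4 (ENSMUSG00000064363, chrM:10167-11544) was 463, 709, 851 and 471 CPM in IRF5-KO on ST-HFD and 282, 326, 323 and 397 CPM on LT-HFD. The LT-HFD libraries all lay below, and replicates 2 and 3 were the high ones on ST-HFD. The log2FC was -0.91 (standard error 0.19, edgeR adjusted p = 0.0014). For mt-Nd5 (ENSMUSG00000064367, chrM:11742-13565) the levels were 1345, 1814, 2215 and 1264 CPM on ST-HFD and 716, 1030, 701 and 1135 CPM on LT-HFD, without overlap. Its log2FC was -0.89 (standard error 0.21, edgeR adjusted p = 0.00344).

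The level of mt-Cytb (ENSMUSG00000064370, chrM:14145-15288) was 1244, 1957, 2199 and 1184 CPM on ST-HFD and 945, 1116, 1057 and 1238 CPM on LT-HFD. The durations overlapped through ST-HFD replicate 4 and LT-HFD replicate 4. The log2FC was -0.60 (standard error 0.19, edgeR adjusted p = 0.0258). The level of mt-Nd6 (ENSMUSG00000064368, chrM:13552-14070, minus strand) was 143, 221, 213 and 137 CPM on ST-HFD and 119, 117, 127 and 140 CPM on LT-HFD, with overlap again. Its log2FC was -0.51 (standard error 0.17, edgeR adjusted p = 0.0304). Groups did not overlap in 3 of the 11 rows, mt-Nd3, mt-Nd4 and mt-Nd5, beside 29.4% of all tested genes.

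The counts of mt-Nd3 in IRF5-KO were 37, 44, 46 and 48 on ST-HFD and 73, 46, 64 and 55 on LT-HFD. In CPM all 4 LT-HFD libraries were higher, by a log2FC of 0.72 (standard error 0.19, edgeR adjusted p = 0.00848). The level of mt-Rnr2 was 67385, 107192, 95098 and 71747 CPM on ST-HFD and 101132, 125744, 113293 and 122510 CPM on LT-HFD. The ranges overlapped, and the log2FC was 0.44 (standard error 0.20, edgeR adjusted p = 0.0949). The log2FC was 0.28 (standard error 0.18, edgeR adjusted p = 0.26) for mt-Rnr1 and 0.07 (standard error 0.17, edgeR adjusted p = 0.774) for mt-Nd1. Without ST-HFD replicate 1 that of mt-Rnr1 was 0.17 and that of mt-Nd1 turned to -0.03. Without ST-HFD replicate 3 they were 0.39 and 0.23.

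The calls on mt-Nd6, mt-Cytb and mt-Rnr2 in IRF5-KO were not stable. With libraries scaled by totals without the mitochondrial rows and mmu-mir-689-2, which put the median of all tested genes at 0.14, the edgeR adjusted p was 0.0672 for mt-Nd6 and 0.0507 for mt-Cytb, and mt-Rnr2 passed at 0.0344. It also passed in DESeq2 (adjusted p = 0.0342) and, in edgeR, without ST-HFD replicate 2 of IRF5-KO (adjusted p = 0.0475), where mt-Nd6 (0.111) and mt-Cytb (0.0826) did not. Called rows fell from 5 to 3 without ST-HFD replicate 3, without LT-HFD replicate 1 or without LT-HFD replicate 3 of IRF5-KO. The calls on mt-Nd3, mt-Nd4 and mt-Nd5, and the 4 calls in WT, held in all 8 fits that left out 1 library.

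**Figure D3:**
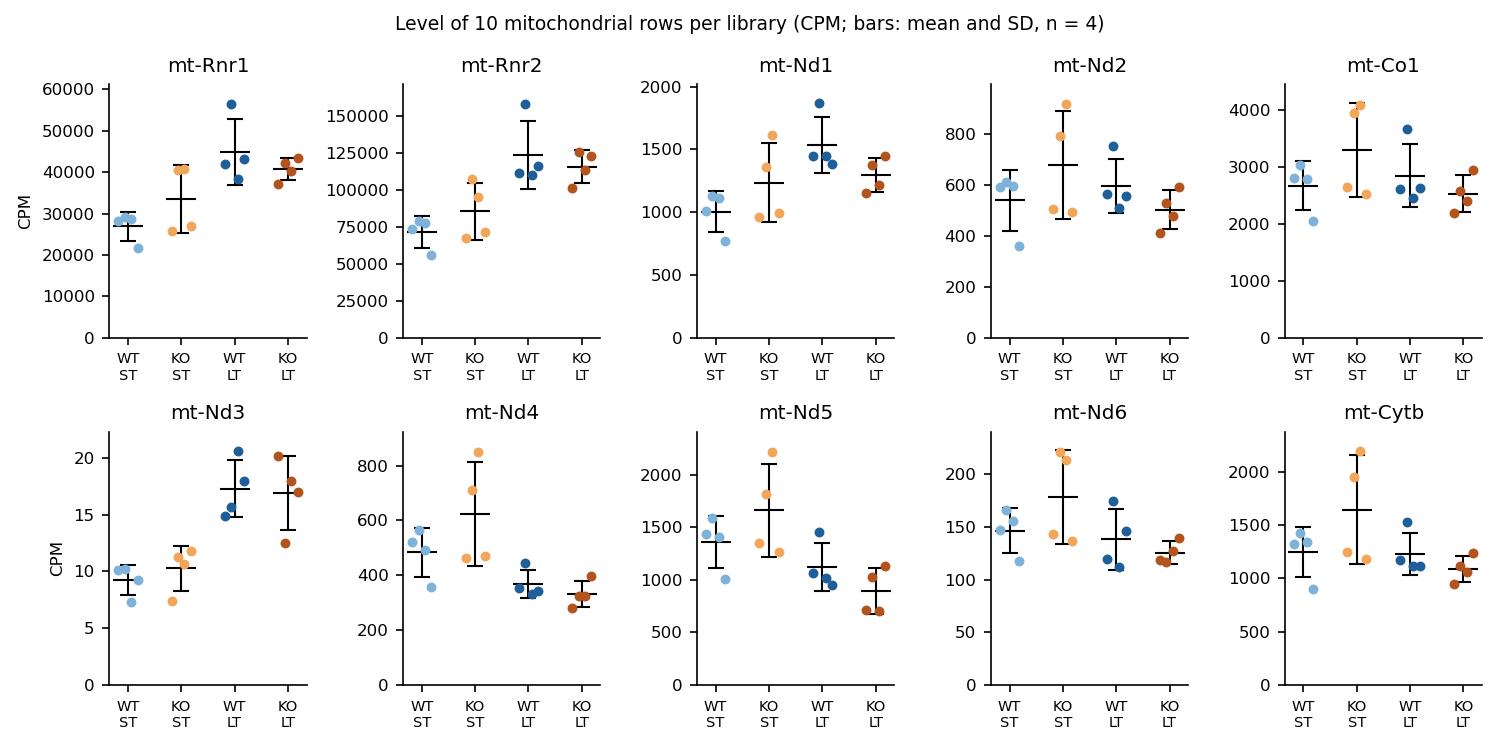
CPM of the 2 rRNA rows and the 8 tested mRNA rows, 1 panel each with its own axis from 0, 1 point per library and the mean and SD of 4 libraries per group (WT and IRF5-KO on ST-HFD, then on LT-HFD). The rRNAs and mt-Nd3 stand higher on LT-HFD in WT, mt-Nd4 and mt-Nd5 lower on LT-HFD in IRF5-KO, and WT LT-HFD replicate 2 is the highest of its group in 9 of the 10 panels.

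Duration moved together with other measures. The fibroblast and preadipocyte markers were 3001 CPM or more on LT-HFD and 1593 CPM or less on ST-HFD. The 7 adipocyte markers summed to 148 to 179 CPM on LT-HFD against 68.3 to 146 CPM on ST-HFD in WT, without overlap, and to 168 to 360.0 against 78.3 to 208 CPM in IRF5-KO, with overlap. Total counts were below 3860469 in every LT-HFD library and at or above it in every ST-HFD library. The macrophage markers were lower on LT-HFD within each genotype, at 7661 to 9627 against 9833 to 10057 CPM in WT and 6305 to 6620 against 8091 to 8596 CPM in IRF5-KO. The part of these measures in the duration differences was not tested. No label gives a sequencing or sorting batch, so a batch that followed duration cannot be told apart from it.

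The make-up of the mitochondrial mRNA counts, which needs no scaling between libraries, also differed by duration. It is not the make-up of the mRNAs themselves, since rows inside the shared stretch hold almost no counts. The shares of a library add up to the whole, so a higher share of one row lowers others. In IRF5-KO the level of mt-Nd1, for example, had a log2FC of only 0.07. The share of mt-Nd1 was 12.8% to 14.1% in WT and 12.6% to 14% in IRF5-KO on ST-HFD, and 18.9% to 20.6% and 18.3% to 19.8% on LT-HFD. In both genotypes the durations were apart by more than the range within either. The share of mt-Nd5 was 17.8% to 18.6% in WT and 16.8% to 18.4% in IRF5-KO on ST-HFD, and 13.3% to 14.7% and 11.1% to 14.5% on LT-HFD. The share of mt-Nd4 was 6.23% to 6.65% and 6.33% to 7.03% on ST-HFD, against 4.49% to 4.82% and 4.6% to 5.12% on LT-HFD. For both rows all LT-HFD libraries lay below all ST-HFD libraries.

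The share of mt-Cytb was also lower on LT-HFD within each genotype, by a narrower margin. In WT it averaged 16.7% ± 0.345 (SD, n = 4) after the short diet and 15.7% ± 0.251 after the long one, and in IRF5-KO 17.5% ± 0.731 and 16.1% ± 0.498. The lowest IRF5-KO library on ST-HFD and the highest on LT-HFD were nearly level. The share of mt-Nd3 was small but had the widest relative difference. It was 0.127% ± 0.0302 and 0.227% ± 0.0584 in WT, 1.79 times as high on LT-HFD. In IRF5-KO it was 0.115% ± 0.0353 and 0.255% ± 0.0754, 2.22 times as high. The counts of mt-Nd3, a row inside the shared stretch, cannot be read as levels of its mRNA, and neither can this share. Its durations overlapped in WT and did not in IRF5-KO.

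In mt-Co1, mt-Nd2 and mt-Nd6 the durations overlapped in both genotypes. The share of mt-Co1, the row with the most mRNA counts, averaged 35.7% ± 0.912 (SD, n = 8) over the ST-HFD libraries and 36.7% ± 0.966 over the LT-HFD libraries. That of mt-Nd2 was 7.17% ± 0.386 and 7.47% ± 0.230, and that of mt-Nd6 1.95% ± 0.105 and 1.81% ± 0.193. Genotypes overlapped at each duration in mt-Nd1, mt-Nd4 and mt-Nd5. These shares are a description, without a test.

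**Figure D4:**
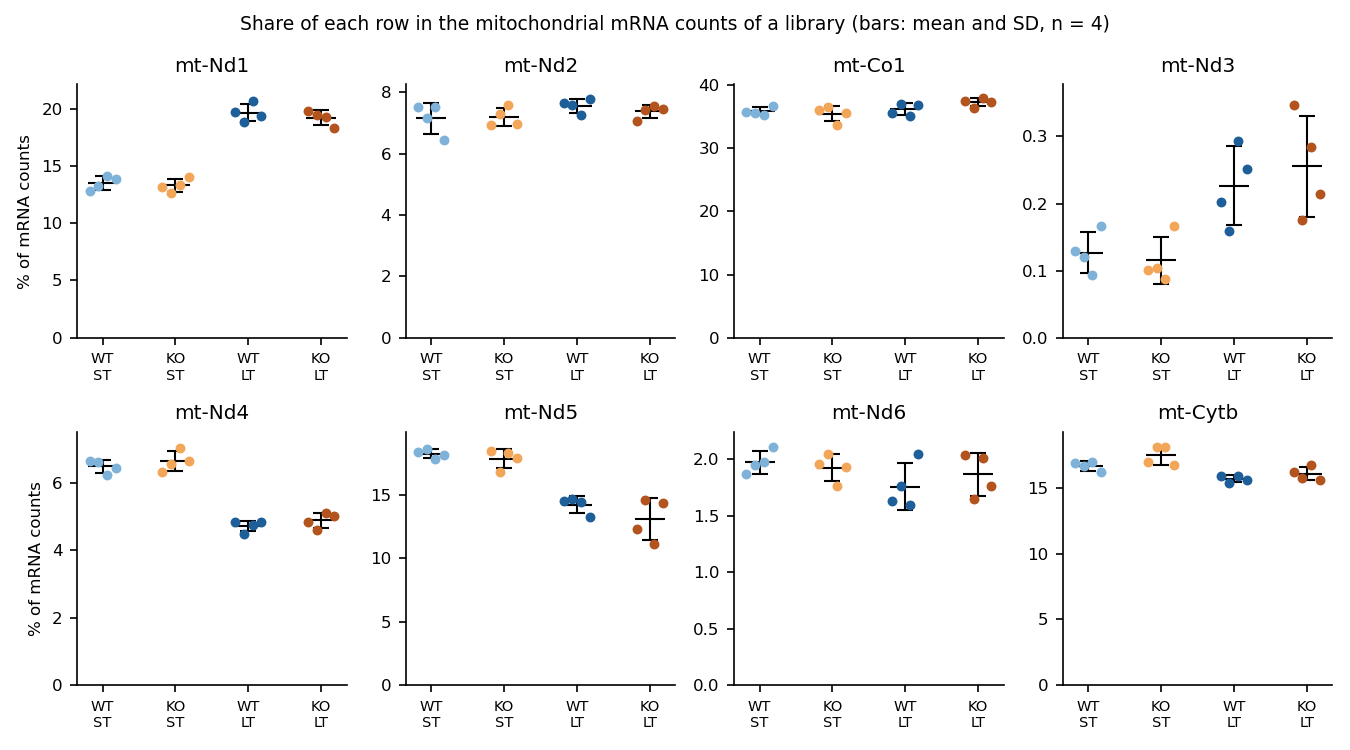
Share of each tested mRNA row in the mitochondrial mRNA counts of a library, in percent with axes from 0, 1 point per library and the mean and SD of 4 libraries per group. The LT-HFD libraries lie above the ST-HFD libraries for mt-Nd1 (18.3% or more against 14.1% or less) and below them for mt-Nd4 and mt-Nd5.

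Genotype was compared within each duration by fits over its 8 libraries. On ST-HFD, 10 of 11 rows had a log2FC above 0, between 0.14 for mt-Nd3 and 0.39 for mt-Cytb, and mt-Ty was at -0.07. The sizes leaned on single libraries. Without IRF5-KO replicate 3 the log2FC of mt-Nd5 went from 0.28 to 0.12, that of mt-Nd2 from 0.32 to 0.15, that of mt-Nd4 from 0.35 to 0.18 and that of mt-Nd1 from 0.29 to 0.14. Without IRF5-KO replicate 2 that of mt-Rnr2 went from 0.25 to 0.12, and without WT replicate 3 that of mt-Nd3 went from 0.14 to 0.05. Without IRF5-KO replicate 1 that of mt-Nd3 was 0.27. That of mt-Ty turned to 0.26 without WT replicate 2, to 0.11 without IRF5-KO replicate 2 and to 0.14 without IRF5-KO replicate 4. None passed an adjusted p of 0.05 in edgeR or in DESeq2, and 0 of 11 had an unadjusted p under 0.05, where 1.84% of the 10958 tested genes did and 0.00913% passed after adjustment. The share of all tested genes above 0 was 50.7%. The summed macrophage markers, with Lyz2 among them, were lower in IRF5-KO than in WT at both durations, and their part in the genotype values was not tested. Since the rows come from shared precursors and are scaled by the same factors, they are not independent of each other.

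For mt-Cytb, the row with the largest difference, the levels were 1328, 1425, 1339 and 902 CPM in WT and 1244, 1957, 2199 and 1184 CPM in IRF5-KO on ST-HFD. WT replicate 4 was low and IRF5-KO replicates 2 and 3 were high, and the other libraries of both genotypes lay between 1184 and 1425 CPM. The log2FC was 0.39 (standard error 0.21, edgeR adjusted p = 1.0), and it was 0.23 without IRF5-KO replicate 3 and 0.51 without IRF5-KO replicate 4. In 9 of the 11 rows WT replicate 4 was the lowest of its group, and WT replicate 2 was the highest in all 11. Groups did not separate in any of the 11 rows, beside 1.47% of all tested genes.

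On LT-HFD all 11 rows had a log2FC below 0, from -0.04 for mt-Nd3 to -0.71 for mt-Ty, and 50.1% of all 10987 tested genes were above 0. None of the rows passed the adjusted threshold in edgeR or DESeq2 and 0 had an unadjusted p under 0.05, where 5.72% of tested genes did and 0.0182% passed after adjustment. For mt-Nd5 the levels were 1065, 1451, 1012 and 946 CPM in WT and 716, 1030, 701 and 1135 CPM in IRF5-KO, overlapping, with a log2FC of -0.33 (standard error 0.19, edgeR adjusted p = 0.87). Groups separated in 0 of the 11 rows, beside 3.01% of all tested genes. WT replicate 2 was the highest of its group in 10 of the 11 rows. Without it the log2FC of mt-Rnr2 turned from -0.10 to 0.04, that of mt-Rnr1 went from -0.15 to -0.02, and that of mt-Nd5 went from -0.33 to -0.18. That of mt-Nd3 turned to 0.07 without WT replicate 3 and to 0.08 without IRF5-KO replicate 2.

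The interaction, the genotype difference on LT-HFD minus that on ST-HFD, was below 0 in all 11 rows, from -0.18 for mt-Nd3 to -0.64 for mt-Ty, and 48.8% of tested genes were above 0. With 1 library left out, mt-Nd3 ranged from -0.32 (without IRF5-KO ST-HFD replicate 1) to -0.06 (without IRF5-KO LT-HFD replicate 2) and mt-Ty from -0.99, when WT replicate 2 of ST-HFD was dropped, to -0.27, when IRF5-KO replicate 3 of ST-HFD was. None passed adjustment in edgeR or DESeq2, and neither did any of the 11560 genes in edgeR (0%). At an unadjusted p under 0.05 stood mt-Nd1 at -0.54 (standard error 0.24, edgeR adjusted p = 0.969) and mt-Cytb at -0.58 (standard error 0.27, edgeR adjusted p = 0.969), 2 of 11 rows beside 3.93% of all tested genes. The sets of rows called for duration in WT and in IRF5-KO are therefore not shown to differ. The interaction shares its libraries with the comparisons above and adds no independent data to them.

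**Figure D5:**
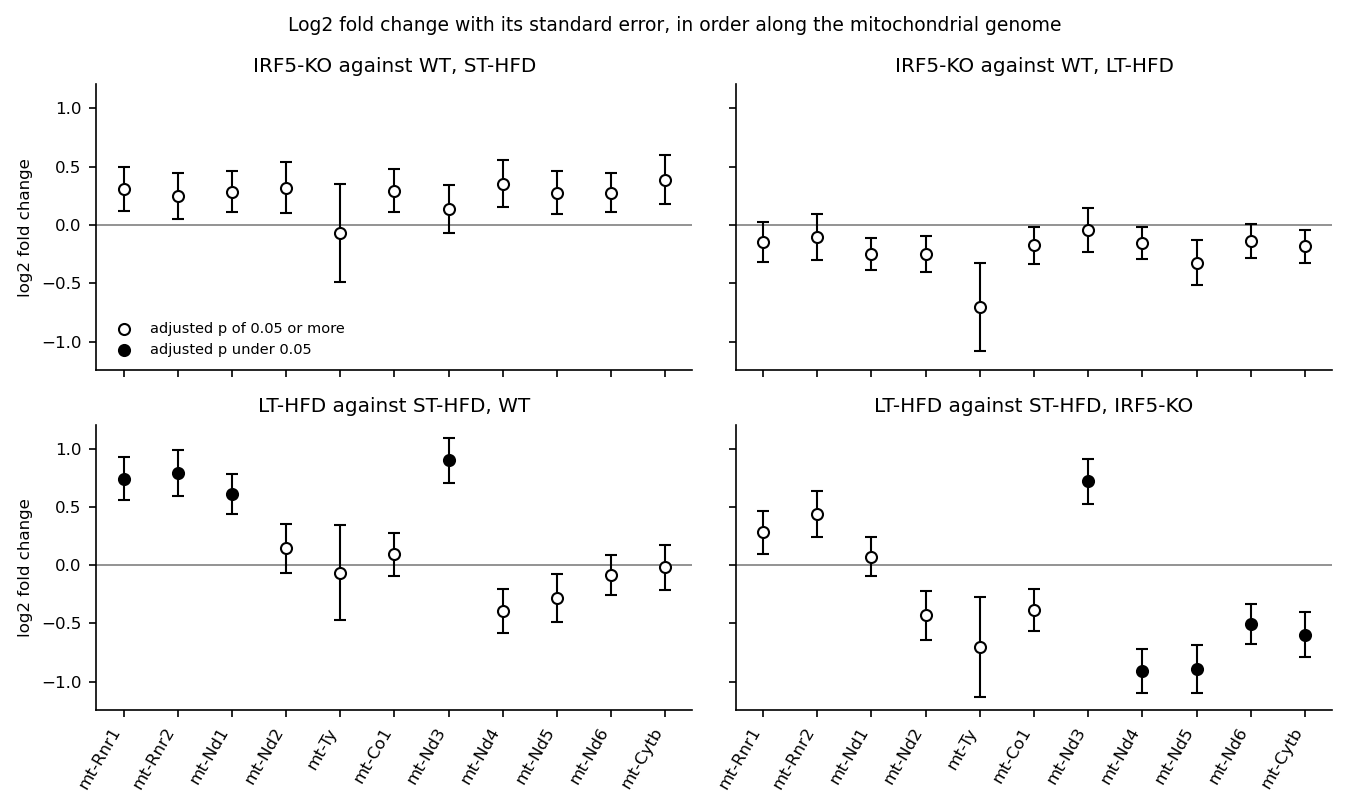
Log2FC with its standard error for the 11 tested rows in order along the mitochondrial genome, for genotype at each duration (top) and for duration in each genotype (bottom), with filled points for an adjusted p under 0.05. In the upper panels no point is filled, and in the lower panels 4 rows in WT and 5 in IRF5-KO are.

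A pair of ratios within the library was tested because they need no scaling. The ratio of mt-Rnr1 to mt-Rnr2 counts was 0.382, 0.372, 0.368 and 0.386 in WT and 0.384, 0.378, 0.430 and 0.376 in IRF5-KO on ST-HFD. On LT-HFD it was 0.377, 0.358, 0.348 and 0.373 in WT and 0.368, 0.336, 0.355 and 0.354 in IRF5-KO. In IRF5-KO every LT-HFD library was lower, by 0.15 on the log2 scale (-0.15, exact permutation p = 0.0286, two-sided, which is the smallest that 4 against 4 allows). After Benjamini-Hochberg adjustment over the 8 tests the exact p became 0.229. As 0.0286 is the smallest exact p, a comparison that separates alone cannot pass the threshold after this adjustment. The adjusted value therefore cannot decide whether the ratio differs by duration in IRF5-KO. The other 3 comparisons of this ratio had adjusted exact p-values of 0.32 to 0.359.

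The genes mt-Nd5 and mt-Nd6 lie on opposite strands and overlap by 14 bases. Without the strand setting of the counting, reads in the overlap and antisense reads cannot be assigned with certainty. The ratio of mt-Nd6 to mt-Nd5 counts was 0.108 ± 0.00653 (SD, n = 4) in WT and 0.108 ± 0.0106 in IRF5-KO on ST-HFD, and 0.124 ± 0.0204 and 0.146 ± 0.033 on LT-HFD. The widest difference was that of duration in IRF5-KO, 0.41 on the log2 scale (exact permutation p = 0.0571, 0.229 after adjustment over the 8 tests). On LT-HFD, IRF5-KO replicates 1 and 3 had 0.166 and 0.182, and the other 2 libraries had 0.113 and 0.123.

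Nuclear genes that act on mitochondrial DNA and RNA were read beside the transcripts, from 5 lists of 71 genes, of which 70 were in the table and 64 were tested in the fits over 16 libraries. None was called for genotype or for the interaction by edgeR, with 3 genes at an unadjusted p under 0.05 in each of these comparisons, of 64 tested on ST-HFD, 63 on LT-HFD and 64 for the interaction. Of all tested genes 1.84%, 5.72% and 3.93% did so. For duration, 2 were higher and 6 lower on LT-HFD in WT, and 4 higher and 5 lower in IRF5-KO, beside the 25.3% and 32.8% of all tested genes that were called. The median log2FC over the tested list genes was 0.01 in WT and 0.06 in IRF5-KO, beside 0.02 and 0.04 over all tested genes.

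Of the 7 tested transcription genes, 1 was called in WT, higher, and 2 in IRF5-KO, 1 in each direction. Tfam, which packages mitochondrial DNA and activates its transcription, was higher on LT-HFD in WT by a log2FC of 0.63 (standard error 0.16, edgeR adjusted p = 0.00933). In IRF5-KO the log2FC of Tfam was 0.19 (standard error 0.17, edgeR adjusted p = 0.419), and the interaction was -0.44 (standard error 0.23, edgeR adjusted p = 0.969). Polrmt, the mitochondrial RNA polymerase, was lower on LT-HFD in IRF5-KO by a log2FC of -1.14 (standard error 0.22, edgeR adjusted p = 6.82e-04). In WT its log2FC was -0.46 (standard error 0.21, edgeR adjusted p = 0.125), and the interaction was -0.68 (standard error 0.30, edgeR adjusted p = 0.969). The initiation factor Tfb2m had a log2FC of -0.30 in WT and -0.20 in IRF5-KO, neither past the threshold.

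Among 23 tested genes of mitochondrial RNA processing, 1 was called in WT, lower, and 2 in IRF5-KO, 1 in each direction. Ptcd1, a processing factor, was lower in WT (log2FC -0.61, edgeR adjusted p = 0.015), and Tbrg4, which stabilises some mitochondrial mRNAs, was lower in IRF5-KO (log2FC -0.59, edgeR adjusted p = 0.00639). Lrpprc and Slirp, a pair that holds mitochondrial mRNAs stable, passed in neither genotype. The log2FC of Lrpprc was -0.23 in WT and -0.13 in IRF5-KO, and that of Slirp was 0.09 and 0.30.

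Of 7 tested regulators of mitochondrial biogenesis, 2 were lower in WT and 3 in IRF5-KO, and none was higher. Of all tested genes, 13.2% in WT and 17.2% in IRF5-KO were called lower. The coactivator Ppargc1b had a log2FC of -1.36 (standard error 0.39, edgeR adjusted p = 0.0151) in WT and -1.85 (standard error 0.40, edgeR adjusted p = 0.00201) in IRF5-KO. The related coactivator Pprc1 had -0.54 (standard error 0.16, edgeR adjusted p = 0.0181) and -0.76 (standard error 0.16, edgeR adjusted p = 0.00156). Of 10 replication genes, 2 were called in WT, 1 in each direction, and 0 in IRF5-KO (2 at an unadjusted p under 0.05). The primase-polymerase Primpol was lower in WT (log2FC -0.78, edgeR adjusted p = 0.0166). Of 17 mitochondrial aminoacyl-tRNA synthetases, 2 were lower in WT and 2 higher in IRF5-KO, among the latter Fars2, which charges the phenylalanine tRNA (log2FC 0.80, edgeR adjusted p = 0.00312). The other called list genes, named after their values were seen, were Tk2 (higher), Aars2 and Sars2 (lower) in WT, and Mterf4, Pnpt1 and Wars2 (higher) and Lonp1 (lower) in IRF5-KO. The calls on Ptcd1, Ppargc1b, Pprc1 and Primpol in WT were each lost when 1 or 2 of the 8 libraries were left out singly, with adjusted p-values up to 0.0694.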

How the data were processed

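The authors processed paired reads with fastp 0.19.11, aligned them to mm10 with STAR 2.7.3a and deposited raw counts per gene without normalization. The libraries were stranded total RNA, made from 10 ng with rRNA depletion. The annotation release, the strand setting and the treatment of reads with several matches are not given in the sources used here. Counts were tested in R 4.3.3 with edgeR 4.0.16 (filterByExpr, TMM factors, quasi-likelihood test, Benjamini-Hochberg adjustment over all tested genes). Genotype was fitted within each diet duration, and duration and the interaction over all 16 libraries. CPM levels share 1 TMM scale over these libraries. Ratios within a library were compared by exact permutation tests, two-sided, with SciPy 1.17.1. Scripts were tested on simulated data. Coordinates, models and sequences came from GENCODE M21 (GRCm38).

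The members and gene lists were chosen with earlier results of these data known. All mt- rRNA and mRNA rows are named, tRNA rows if tested, and mt-Tp was named after its counts were seen. Of the nuclear lists, Tfam, Polrmt, Tfb2m, Lrpprc and Slirp are always named, and otherwise at most 5 called genes per comparison. Of the listed genes, Prorp was not analysed here. Across all 120 pairs of libraries the counts differed by more than sampling noise (chi-square per gene of 4.00 or more). Whether WT and IRF5-KO libraries with the same number pair was checked by correlating their deviations from group means, in genes averaging 20 counts or more. The correlations were 0.369, 0.483, 0.179 and 0.298 on ST-HFD, where the libraries were therefore treated as pairs in the block, and -0.07, -0.15, 0.06 and 0.23 on LT-HFD, where the numbers did not pair them. Totals of 3279332 to 4958131 counts per library set the precision, and a limit of 3 counts was used for a count of 0, for counting error only. Alternatives were DESeq2 size factors and its Wald test (version 1.42.0), library totals without mitochondrial rows and mmu-mir-689-2, no filter, a replicate block, all 16 libraries in the genotype fits, and leaving out each library in turn.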

Additional observations from a re-analysis of the deposited data

Results flagged for a closer look

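In 10 of 64 groups of 4 libraries checked (rows, shares and ratios), 1 library stood apart from the other 3 by more than Dixon's limit, which chance exceeds in about 1 in 20 groups. The groups are not independent, since rows of 1 library are scaled together. WT ST-HFD replicate 4 was low in mt-Rnr1 (21608 CPM, the others at 28191 to 29254 CPM), in mt-Nd2 (359 CPM, the others at 590 to 611 CPM), in the rRNA share (8.34%, the others at 10.5% to 10.9%) and in the mRNA share (0.599%, the others at 0.808% to 0.839%). WT LT-HFD replicate 2, the library with the fewest counts (3279332), was high in mt-Rnr2 (157915 CPM, the others at 109971 to 115748 CPM), in mt-Nd1 (1866 CPM, the others at 1380.2 to 1451 CPM), in mt-Co1 (3666 CPM, the others at 2461 to 2632 CPM), in mt-Cytb (1526 CPM, the others at 1114 to 1170.3 CPM) and in the rRNA share (18.7%, the others at 15.0% to 15.5%). IRF5-KO ST-HFD replicate 3 was high in the ratio of mt-Rnr1 to mt-Rnr2 (0.430, the others at 0.376 to 0.384).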

How the results depend on the processing

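The number of called rows was 0 for genotype at each duration and for the interaction, and 4 for duration in WT, under every alternative run, and for duration in IRF5-KO it was 4 to 6 under the alternatives that kept all libraries and 3 to 5 with 1 library left out. A replicate block gave 4 called rows in place of 5 in IRF5-KO, where mt-Nd6 stood at an edgeR adjusted p of 0.0601, and changed no other count of called rows. For duration that block took ST-HFD and LT-HFD libraries of the same number as pairs, which their correlations did not bear out. Among all genes, those called for genotype on ST-HFD went from 1 to 2 (no filter, DESeq2, the replicate block, all 16 libraries), and on LT-HFD from 2 to 0 (totals without mitochondrial rows and mmu-mir-689-2, the replicate block) or 6 (no filter, DESeq2), and to 0 to 2 with 1 library left out. With those totals the WT duration log2FC of mt-Ty became 0.0062 and that of mt-Cytb 0.0476. With 1 library left out, signs turned for some rows in comparisons where the row was not called. The ranges were -0.43 to 0.26 for mt-Ty in genotype on ST-HFD, -0.15 to 0.0379 for mt-Rnr2 and -0.13 to 0.0756 for mt-Nd3 in genotype on LT-HFD, and -0.0281 to 0.23 for mt-Nd1 in duration in IRF5-KO. In duration in WT they were -0.0038 to 0.21 for mt-Nd2, -0.23 to 0.28 for mt-Ty, -0.0562 to 0.16 for mt-Co1 and -0.14 to 0.0484 for mt-Cytb. The log2 ratio of mt-Nd6 to mt-Nd5 for genotype on ST-HFD ranged from -0.0667 to 0.047. Without mmu-mir-689-2 in the denominator the rRNA share was 11.4% in WT and 13.3% in IRF5-KO on ST-HFD, and 18.7% and 17.8% on LT-HFD. The mRNA share was then 0.862% and 1.04% on ST-HFD, and 0.869% and 0.774% on LT-HFD, so that the WT mean was slightly higher on LT-HFD and no longer slightly lower. Per 100 nuclear counts without it, rRNA stood at 13 (WT) and 15.5 (IRF5-KO) on ST-HFD and at 23.3 and 21.9 on LT-HFD, and mRNA at 0.984 and 1.22, and at 1.08 and 0.952. By construction a smaller denominator raises a share. Ratios could not pass with 1 library left out, since 3 against 4 allows an exact p of 0.0571 at best, and the replicate block one of 0.125. With all libraries kept, a ratio comparison that separated alone could not pass after adjustment over the 8 tests either. For rows at 0 to 7 counts the depth allows no comparison.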
